A study of Mus musculus with 96 samples.

Results

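The major urinary protein (Mup) genes described here are 10 neighbouring genes of mouse chromosome 4: Mup1, Mup2, Mup3, Mup7, Mup11, Mup16, Mup17, Mup18, Mup20 and Mup21. They were chosen by symbol, from 48 genes with a Mup symbol among 38924 genes in the tables. Liver messenger RNA was read from 48 male F1 mice of the reciprocal crosses NODxPWK and PWKxNOD, in which the strain written first is taken here as the dam. NOD/ShiLtJ is an inbred strain prone to autoimmune diabetes, and PWK/PhJ is an inbred strain derived from wild mice. Every mouse thus carried a NOD and a PWK copy of chromosome 4. Sons take their X chromosome from the dam, so the crosses differ in the strain of the X and Y chromosomes, of the mitochondria and of the mother. Each cross was split by diet, with cholecalciferol (vitamin D3) at 0.009 g per kg (normal) or 0.050 g per kg (high), and by age. This gave 8 groups of 6 separate mice: NODxPWK normal younger, NODxPWK high younger, NODxPWK normal older, NODxPWK high older, and the same 4 for PWKxNOD. The ages of the younger mice are labelled 8 in the sample labels and 15 weeks in the protocol, so ages are given only as younger and older. The older mice are labelled 24, or 25 in 7 mice that were all on the normal diet (5 NODxPWK and 2 PWKxNOD).

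Mup proteins are small secreted lipocalins, barrel-shaped carriers that bind hydrophobic molecules in a central pocket. In mice the liver releases them into the blood, the kidney passes them into urine, and there they hold volatile pheromones and release them slowly. Their genes form a cluster of recent duplicates, and hepatocytes of males transcribe them strongly in response to pulses of growth hormone, with androgens, thyroid hormone and glucocorticoids also acting on them. Mup20 encodes darcin, a male urinary protein that acts as a pheromone itself. Mup1 protein has also been studied as a circulating factor in glucose metabolism.

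The members lie on the minus strand of chromosome 4 (GRCm38), from Mup7 at 60066469-60070475 to Mup21 at 62147932-62150863, and each is annotated as a protein-coding gene of 6 or 7 exons. Coding sequences of 7 of them (Mup1, Mup2, Mup7, Mup11, Mup16, Mup17 and Mup18) were 98.35 to 99.82% identical over 21 pairs. Mup3, Mup20 and Mup21 shared 86.67 to 94.77% with each other and 82.16 to 91.39% with the former 7, and this division was made after the identities were known. The stretches below are 68 bases of exon 2, which is the length of 1 read, on the gene's strand. They are shown because they let the reader see which copies a read of the reference sequence can tell apart, and capitals mark bases that differ from Mup7. All sequences, identities and window shares given here are those of the reference build. Those of the NOD and PWK copies, which these mice carry, were not examined and may differ. The Mup7 stretch lies at chr4:60069757-60069824, that of Mup17 at chr4:61595217-61595284, of Mup20 at chr4:62053504-62053571, of Mup3 at chr4:62086824-62086891 and of Mup21 at chr4:62150219-62150286.
Mup7: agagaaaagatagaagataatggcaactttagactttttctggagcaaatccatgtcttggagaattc
Mup17: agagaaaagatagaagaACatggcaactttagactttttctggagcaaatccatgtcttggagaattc
Mup20: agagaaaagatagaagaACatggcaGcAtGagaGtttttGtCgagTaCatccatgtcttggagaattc
Mup3: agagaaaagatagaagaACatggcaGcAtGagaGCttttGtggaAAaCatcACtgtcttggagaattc
Mup21: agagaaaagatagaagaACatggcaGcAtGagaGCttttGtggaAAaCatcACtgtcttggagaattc
The Mup7 stretch occurs unchanged in 6 of the 10 members (Mup1, Mup2, Mup7, Mup11, Mup16 and Mup18) and in 10 Mup genes in all. Mup17 differed from it at 2 bases, Mup20 at 10, and Mup3 and Mup21 at 13.

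Over whole annotated transcripts, 88.1% of the 68-base windows of Mup16 also occur in another gene, 87.6% of those of Mup18, 82.9% of Mup7, 77.9% of Mup2, 74.6% of Mup11, 71.4% of Mup17 and 58.2% of Mup1. Mup20 shares 44.8%, all with the pseudogene Mup-ps19, while Mup21 shares 12.5% and Mup3 6.71%, both with each other. By the reference sequence, values of Mup3 and Mup21 therefore rest mostly on reads of their own. Those of the 7 close copies depend on how the submitters' software divided reads between copies. The sum over the 10 members is given beside each result for that reason.

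Promoter sequences from RefSeq (GRCm38.p6, 250 bases before to 50 after the start) were matched for 7 of the 10 members. The 100 bases below end with the letters TATATAAG, shown in capitals, a TATA box sequence. They are given for Mup2 and Mup17, whose levels differed between groups as reported below, and for Mup3, which was not called between the crosses or diets. The Mup2 stretch is chr4:60139876-60139975, that of Mup17 is chr4:61595850-61595949 and that of Mup3 is chr4:62087321-62087420, all on the minus strand.
Mup2: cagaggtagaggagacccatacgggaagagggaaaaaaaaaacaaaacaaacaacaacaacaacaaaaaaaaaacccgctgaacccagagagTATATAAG
Mup17: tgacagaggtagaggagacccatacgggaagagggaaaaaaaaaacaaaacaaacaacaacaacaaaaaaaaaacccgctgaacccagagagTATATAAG
Mup3: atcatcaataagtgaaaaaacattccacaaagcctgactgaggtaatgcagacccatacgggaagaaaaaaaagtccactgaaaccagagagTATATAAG
TATATAAG was found in 5 of the 7 member entries (Mup2, Mup3, Mup17, Mup18 and Mup21) and in 0.935% of 32851 promoter entries, counting both strands. TTCNNNGAA, the core letters bound by STAT5, a factor that growth hormone activates, was found in 0 of the 7 and in 7.02% of all entries. That no match was found says only that these letters are absent from this window.

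Summed counts ranged from 2025857 to 7480778 per mouse (median 5273518), and the 6 mice of 1 barcode had the lowest (up to 3090625, against at least 4098730 in the others). Markers of hepatocytes were high, since 14 genes of secreted hepatocyte proteins summed to between 103842 and 169536 CPM in every mouse, where CPM is the count scaled to a common library size. In contrast, 7 B and T lymphocyte markers summed to at most 7.136 CPM. Exocrine pancreas markers exceeded 60 CPM in 10 mice, and results without these mice are given where they differ. A lower level in whole liver can come from fewer hepatocytes or from less RNA per hepatocyte, which cannot be told apart here.

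The 10 members together made up between 4.08 and 13.7% of all counts in a mouse, with a median of 8.85%. NODxPWK normal older mice had the lowest shares, at 4.08% in the lowest, 5.81% in the median and 7.00% in the highest mouse. NODxPWK normal younger mice had 5.24, 7.19 and 9.30%, and NODxPWK high younger mice 5.29, 8.21 and 8.91%. NODxPWK high older mice had 7.05, 7.59 and 10.97%. In this share all 6 of the latter lay narrowly above the highest NODxPWK normal older mouse. In CPM, the scale of the tests below, these groups overlapped. The lowest NODxPWK high older mouse had 67056 CPM and the highest NODxPWK normal older mouse 71543 CPM.

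PWKxNOD mice stood higher. PWKxNOD normal younger mice had 9.36, 10.7 and 12.8% in the lowest, median and highest mouse, and PWKxNOD high older mice had 9.55, 10.6 and 13.7%. PWKxNOD high younger mice had 6.91, 10.02 and 11.5%. PWKxNOD normal older mice spread most widely, from 4.61% over a median of 7.98% to 12.4%, and overlapped with every other group.

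**Figure D1:**
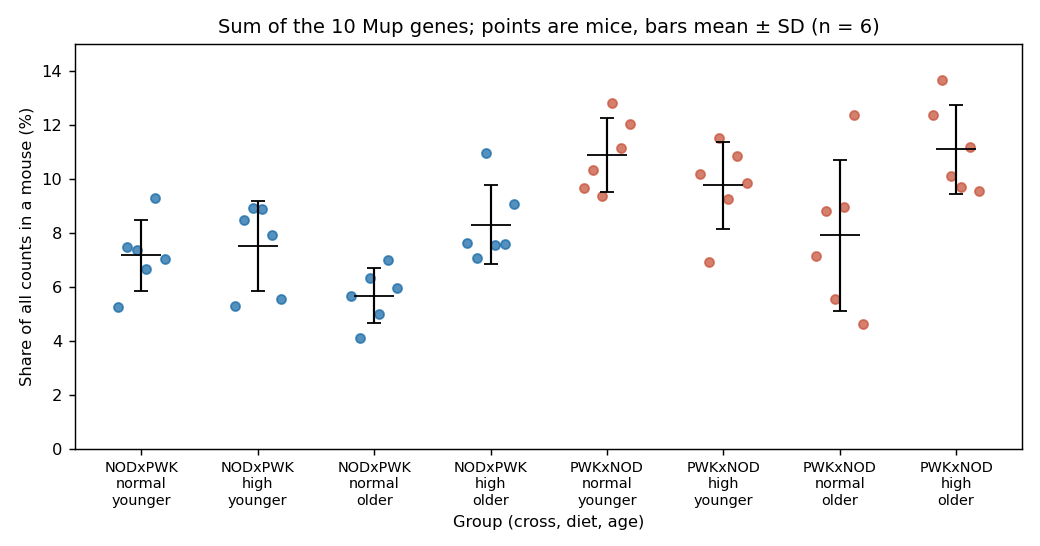
Share of all counts taken by the 10 members (y axis, percent) in each of the 8 groups (x axis), with 1 point per mouse and the mean ± SD over 6 mice. NODxPWK normal older mice sit lowest, at 4.08 to 7.00%, and PWKxNOD high older mice reach 13.7%.

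Levels of different members were compared as CPM per kilobase of annotated transcript, averaged over 48 mice. Mup7 was highest at 30132 ± 8607 CPM per kb (SD, n = 48), followed by Mup2 at 21957 ± 9023, and Mup7 exceeded Mup2 in 45 of 48 mice. Below them came Mup18 (9954 ± 3868), Mup1 (8496 ± 3036), Mup17 (7525 ± 3726) and Mup20 (6591 ± 2430). These neighbours in the order were not clearly separated: Mup18 exceeded Mup1 in 30 mice, Mup1 exceeded Mup17 in 28 and Mup17 exceeded Mup20 in 32.

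Mup16 (3822 ± 1181 CPM per kb) and Mup3 (3403 ± 476.8) were also close, with Mup16 above Mup3 in 29 of 48 mice. Mup21 (1142 ± 281.8) and Mup11 (167.4 ± 103.1) were lowest, and each stood below its upper neighbour in all 48 mice. Relative to its mean, Mup3 varied least. Its group means ranged from 3118 to 3934 CPM per kb, whereas those of Mup17 ranged from 3131 in NODxPWK normal older mice to 12160 in PWKxNOD high older mice. The lowest group mean was that of NODxPWK normal older mice for each member except Mup1, whose lowest was that of NODxPWK high younger mice (6283 CPM per kb).

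**Figure D2:**
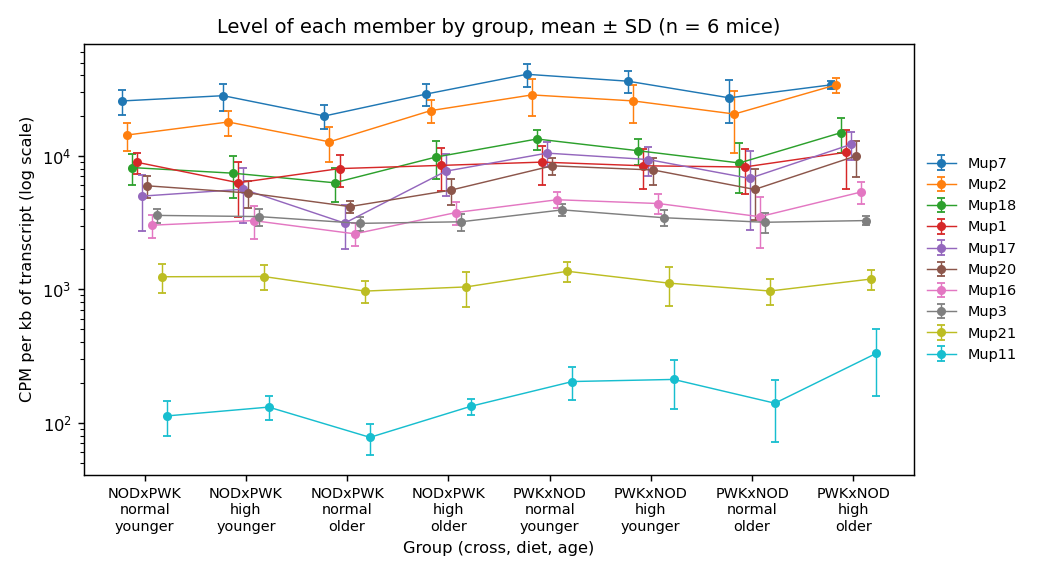
Level of each member in CPM per kb of transcript (y axis, log scale) in the 8 groups (x axis), as mean ± SD over 6 mice. Most members are lowest in NODxPWK normal older mice, while the line of Mup3 stays between 3118 and 3934 CPM per kb.

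The comparison of the reciprocal crosses addresses whether the direction of the cross changes expression. Most Mup genes were higher in PWKxNOD mice, and the family sum was 1.43-fold higher. It averaged 101743 ± 25424 CPM in PWKxNOD and 70918 ± 17543 CPM in NODxPWK mice (SD, n = 24). The ranges overlapped, from 41789 over a median of 102572 to 151337 CPM in PWKxNOD and from 40523 over 72193 to 117222 CPM in NODxPWK mice. The log2 difference was 0.52 ± 0.09 (standard error; adjusted p = 6.69e-05, edgeR's quasi-likelihood test with Benjamini-Hochberg adjustment, as for all adjusted p-values below unless named otherwise). The direction held in 6 of 6 lane sets (a lane set is the mice sequenced on the same lanes, 1 of each group) and in each of the 4 combinations of age and diet. Of the 10 members, all of which passed the filter on low counts, 7 were called higher and 0 lower, against 5.36% of all 11979 tested genes called higher and 5.34% lower.

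Mup11, the least abundant member, differed most. Its level ran from 65.4 over a median of 176 to 580 CPM in PWKxNOD and from 46.9 over 106 to 158 CPM in NODxPWK mice, a log2 difference of 0.93 ± 0.14 (adjusted p = 3.96e-06). Mup17 ran from 2785 over 9154 to 15734 CPM against 1285 over 4554 to 11034 CPM, a difference of 0.90 ± 0.16 (adjusted p = 8.74e-05). The median PWKxNOD mouse lay above every NODxPWK mouse for Mup11 but not for Mup17, and the lowest PWKxNOD mice fell within the NODxPWK range for both. Mup2 ran from 9325 over 25376 to 38136 CPM against 8435 over 15215 to 26699 CPM, a difference of 0.71 ± 0.12 (adjusted p = 3.34e-05).

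Mup20, the darcin gene, ran from 3213 over 7547 to 13585 CPM in PWKxNOD and from 2872 over 4938 to 6461 CPM in NODxPWK mice, a log2 difference of 0.59 ± 0.10 (adjusted p = 3.1e-05). No NODxPWK mouse reached the PWKxNOD median of this gene, although the ranges overlapped. Mup18 differed by 0.59 ± 0.12 (adjusted p = 0.000734), Mup16 by 0.50 ± 0.10 (adjusted p = 0.000208) and Mup7 by 0.43 ± 0.09 (adjusted p = 0.000779). Each of these 7 members was higher in PWKxNOD mice in 6 of 6 lane sets.

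Mup1, Mup3 and Mup21 were not called between the crosses. Mup3 ran from 2435 over 3442 to 4332 CPM in PWKxNOD and from 2625 over 3291 to 4126 CPM in NODxPWK mice, and its log2 difference of 0.04 ± 0.05 had an interval of -0.065 to 0.148 (95%, from the standard error, as for all intervals below). The difference was 0.04 ± 0.10 for Mup21, with an interval of -0.15 to 0.23, and 0.20 ± 0.15 for Mup1, with an interval of -0.10 to 0.50. The ranges of all 3 genes overlapped over most of their length.

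Whether a member changed relative to the rest of the family was tested with the log2 ratio of each member over the sum of the other 9, by permutation within age and diet (100000 resamples, two-sided, adjusted over 20 tests). This test was added after the values above were seen. Between the crosses Mup3 fell by 0.488 (adjusted p = 6.67e-05) and Mup21 by 0.475 (adjusted p = 6.67e-05) relative to the others in PWKxNOD mice, both in 6 of 6 lane sets. Mup17 rose by 0.443 (adjusted p = 6.67e-05) in 5 of 6, Mup11 by 0.347 (adjusted p = 0.00028) in 6 of 6 and Mup2 by 0.212 (adjusted p = 0.0127) in 5 of 6. Mup7 fell by 0.131 (adjusted p = 0.00123) in 6 of 6, and Mup1 fell by 0.365 (adjusted p = 0.0482) in 5 of 6. The value of Mup1 was -0.557 without lane set 2, -0.235 without lane set 6 and between these without the others, and did not pass without lane set 3, 4, 5 or 6 (unadjusted permutation p = 0.107, 0.054, 0.108 and 0.205). Mup2 did not pass without lane set 6, at 0.151 (unadjusted p = 0.0653), and neither gene passed without the mice labelled 25 (-0.254 and 0.124, unadjusted p = 0.264 and 0.279). Mup16, Mup18 and Mup20 did not pass, at -0.022, 0.10 and 0.058 (adjusted p = 0.484, 0.209 and 0.44). These ratios follow in part from the member differences above, and they share members in their sums. For the close copies they also depend on how reads were divided between copies. By assigned counts, the makeup of the family thus differed between the crosses as well as its sum.

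Circadian clock genes moved with the cross. Of 16 clock genes tested, 10 were called higher and 4 lower in PWKxNOD mice, where 5.36% of all genes were called higher and 5.34% lower. Among them were Arntl, which encodes the clock activator BMAL1 (log2 difference -1.94 ± 0.19, adjusted p = 2.79e-10), and the repressor genes Per3 (1.53 ± 0.18, adjusted p = 2.29e-08) and Per2 (1.16 ± 0.14, adjusted p = 3.8e-08). A clock score per mouse (mean log2 CPM of Ciart, Dbp, Nr1d2, Per2, Per3 and Tef, less the mean of Arntl, Clock, Nfil3 and Npas2) averaged 2.70 ± 0.965 in PWKxNOD and 0.139 ± 1.503 in NODxPWK mice (SD, n = 24). Its ranges were 0.873 to 4.175 and -2.82 to 2.55, and the means differed by 2.56. The genes of the score were chosen with earlier results of these data known, so its difference between groups is given as a description with no test. Only Nr1d1 and Cry1, both outside the score, were not called between the crosses (0.21 and -0.26, adjusted p = 0.409 and 0.122). All other clock genes tested, within or outside the score, were called. Cry1 passed the test of whether the cross difference changed with age (-1.08 ± 0.22, adjusted p = 0.0227). With the score as a covariate the family difference was 0.29 ± 0.17 (adjusted p = 0.917), 0 of 10 members and 62 of 11979 genes were called, and the unadjusted p of the family was 0.0898. Without the score 1282 genes were called, and the standard error of the family was 0.093 against 0.167 with it. Score and cross move together, so this covariate cannot tell them apart and its lost calls decide nothing. The labels give no sampling times, and the part of the clock genes in the cross difference was not tested.

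Of 14 exocrine pancreas markers tested, 7 were called higher and 0 lower in PWKxNOD mice, against 5.36% of all genes called higher and 5.34% lower. Their summed level ran from 16.5 to 306.5 CPM in NODxPWK and from 23.4 to 2253 CPM in PWKxNOD mice. Group medians of this sum did not differ in the same direction at both ages. In older mice they were 50.58 (normal diet) and 43.68 CPM (high) in NODxPWK against 40.97 and 37.17 CPM in PWKxNOD mice. In younger mice they were 25.7 and 25.75 CPM against 31.88 and 29.79 CPM. In every NODxPWK normal younger mouse 8 of 15 markers were at 0 (Prss2, Cpb1, Cela3b, Pnlip, Ctrb1, Try4, Clps and Zg16). Without the 10 mice above 60 CPM the family difference was 0.51 ± 0.11 (adjusted p = 0.00124).

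**Figure D3:**
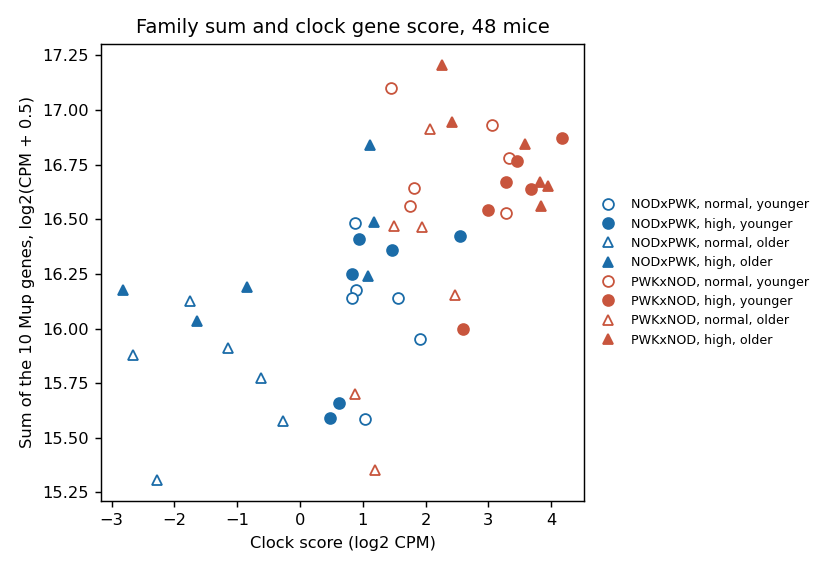
Family sum as log2(CPM + 0.5) (y axis) against the clock score in log2 CPM (x axis) for 48 mice, with colour for cross, shape for age and filling for diet. PWKxNOD mice, with a mean score of 2.70, lie mostly to the right of NODxPWK mice, with a mean score of 0.139.

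The high vitamin D diet was compared with the normal diet over all mice and within each age. In older mice most Mup genes were higher on the high diet, and the family sum was 1.48-fold higher. It averaged 100100 ± 25092 CPM on the high and 67616 ± 24119 CPM on the normal diet (SD, n = 12). The ranges overlapped, from 67056 over a median of 99810 to 151337 CPM on the high and from 40523 over 60934 to 123396 CPM on the normal diet. The log2 difference was 0.57 ± 0.13 (adjusted p = 0.00845), with 0.566 in NODxPWK and 0.637 in PWKxNOD mice as differences of mean log2 values, and higher in 6 of 6 lane sets. Of the 10 members 7 were called higher and 0 lower, against 3.71% of all genes called (1.90% higher and 1.81% lower).

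Mup17 and Mup11 differed most, as they did between the crosses. Mup17 ran from 4473 over a median of 8789 to 15734 CPM on the high and from 1285 over 3314 to 12652 CPM on the normal diet, a log2 difference of 1.07 ± 0.23 (adjusted p = 0.00453). Mup11 ran from 96.9 over 147 to 580 CPM against 46.9 over 85.5 to 248 CPM, a difference of 1.01 ± 0.20 (adjusted p = 0.00201). In both genes the lowest high diet mouse stood above the normal diet median. Mup2 ran from 15597 over 26322 to 38136 CPM against 8435 over 13410 to 34286 CPM, a difference of 0.75 ± 0.17 (adjusted p = 0.00735).

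Mup18 differed by 0.70 ± 0.18 (adjusted p = 0.016), Mup20 by 0.62 ± 0.14 (adjusted p = 0.00679), Mup16 by 0.57 ± 0.14 (adjusted p = 0.0101) and Mup7 by 0.43 ± 0.13 (adjusted p = 0.0434). Mup7 was higher on the high diet in 5 of 6 lane sets and the other 6 called members in 6 of 6. Mup3 differed by 0.04 ± 0.08, with an interval of -0.11 to 0.19, Mup21 by 0.20 ± 0.14, with an interval of -0.07 to 0.47, and Mup1 by 0.22 ± 0.22, with an interval of -0.20 to 0.64, and none of these was called. The cross and diet comparisons share mice, and their values are given side by side only.

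Relative to the sum of the other 9 members, Mup17 rose by 0.607 on the high diet in older mice (adjusted p = 0.0004), Mup11 by 0.406 (adjusted p = 0.00584) and Mup2 by 0.304 (adjusted p = 0.0133), in 6, 6 and 5 of 6 lane sets. Mup3 fell by 0.580 (adjusted p = 0.00015), Mup21 by 0.410 (adjusted p = 0.00347), Mup7 by 0.173 (adjusted p = 0.0105) and Mup1 by 0.481 (adjusted p = 0.0409), the first 3 of these in 6 of 6 lane sets and Mup1 in 5. These are permutation tests of the same kind and family of 20 as for the cross, with the same limits. Mup1 did not pass without lane set 2, 3 or 6 (-0.382, -0.388 and -0.391, unadjusted p = 0.0712, 0.081 and 0.113), nor did Mup2 without lane set 6 (0.230, unadjusted p = 0.0546). Without the mice labelled 25, Mup1, Mup2 and Mup11 did not pass, at -0.270, 0.141 and 0.178 (unadjusted p = 0.313, 0.299 and 0.352).

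The call for the diet in older mice did not hold under every alternative, although the direction did in those that follow. All 7 mice labelled 25 were older mice on the normal diet, and without them the family difference was 0.54 ± 0.22 (adjusted p = 0.409), with 0 of 10 members and 5 of 13053 genes called. Only 1 older normal diet NODxPWK mouse is left without them. The difference was 0.49 ± 0.14 without lane set 3 (adjusted p = 0.0666), 0.47 ± 0.16 without the mice with pancreas transcripts (adjusted p = 0.237) and 0.44 ± 0.15 with the clock score as a covariate (adjusted p = 0.179). The clock score itself was 1.38 higher on the high diet in older mice, again as a description. Of 16 clock genes 5 were called (3 higher, 2 lower), against 3.71% of all genes. Because the score moves with the diet as well, the covariate cannot tell them apart, and the part of the clock genes in the diet difference was not tested. Without lane set 2 or lane set 3, 4 members were called, and without the mice with pancreas transcripts 0.

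In younger mice the family sum averaged 86413 ± 22396 CPM on the high and 91193 ± 26532 CPM on the normal diet (SD, n = 12). The log2 difference was -0.06 ± 0.13, with an interval of -0.31 to 0.20 (adjusted p = 1), and it was higher on the high diet in 2 of 6 lane sets. By edgeR 0 of 10 members were called in either direction, 0 members reached an unadjusted p of 0.05 or less, DESeq2 called 0, and 0% of all genes were called. The test of whether the diet difference changed with age gave 0.62 ± 0.19 for the family (adjusted p = 0.105), so the diet response was not shown to differ between ages. Of the members 0 passed this test by edgeR, against 0.618% of all genes, although 7 members reached an unadjusted p of 0.05 or less and DESeq2 called 2. The smallest adjusted p was that of Mup20, at 0.76 ± 0.20 (adjusted p = 0.0585). With the replicate block edgeR called Mup20 (0.79 ± 0.20, adjusted p = 0.0489) and Mup18 (0.93 ± 0.24, adjusted p = 0.0479).

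**Figure D4:**
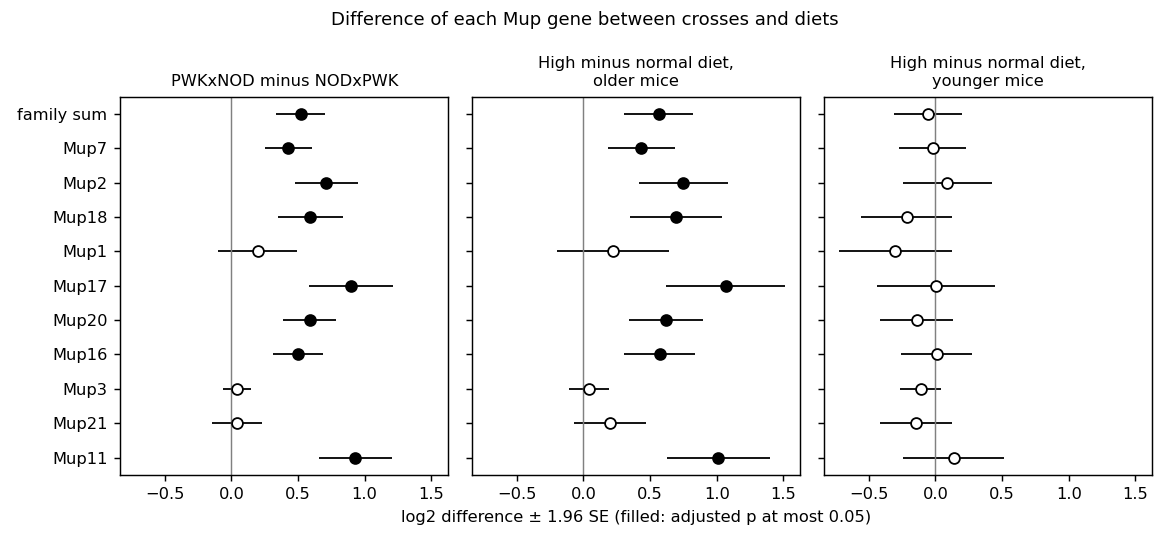
Log2 difference with its 95% interval (x axis) of the family sum and each member (y axis, ordered by level) between crosses and between diets in older and younger mice, with filled points for adjusted p of at most 0.05. For the cross and for the diet in older mice 7 members are filled, and 0 for the diet in younger mice.

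Averaged over both ages, the diet difference of the family was 0.26 ± 0.09 (adjusted p = 0.227). Mup11 was the only member called (0.57 ± 0.14, adjusted p = 0.048), against 0.342% of all genes called (0.175% higher and 0.167% lower), and 0 members were called without lane set 1, 2, 3, 4 or 6 and 3 without lane set 5. Between ages the family differed by -0.10 ± 0.09 (adjusted p = 0.569), with an interval of -0.28 to 0.08. Mup3 alone was called, at -0.18 ± 0.05 in older mice (adjusted p = 0.0234), against 5.58% of all genes called lower and 6.43% higher, and it lost the call without lane set 4, 5 or 6, the mice labelled 25, the shallowest barcode or the mice with pancreas transcripts, and with the clock score as a covariate. It ran from 2435 over a median of 3165 to 4025 CPM in older and from 2527 over 3549 to 4332 CPM in younger mice, which overlapped over most of their ranges. Mup7 (-0.25 ± 0.09, adjusted p = 0.059) and Mup21 (-0.25 ± 0.10, adjusted p = 0.0857) did not pass.

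The cross did not show a different size by age or diet in the tests of those differences. The family gave -0.08 ± 0.19 for age by cross (adjusted p = 0.968) and -0.11 ± 0.19 for diet by cross (adjusted p = 0.81), with intervals of -0.45 to 0.28 and -0.47 to 0.25. Of the members 0 were called for either by edgeR, against 0.0501% and 0.125% of all genes, with 0 at an unadjusted p of at most 0.05 and 0 called by DESeq2.

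The tables give NOD and PWK counts of each gene, and the PWK share is the PWK count over their sum. Mup1, Mup17, Mup20 and Mup21 stood at 50% in each of 48 mice (within 0.01 percentage points), although counting error alone, for counts of their size, would give an SD of 0.27, 0.30, 0.30 and 0.84 percentage points. Shares that vary less than counting error are not measurements of the 2 alleles, and no allele test is reported for these 4 genes. Among 9362 autosomal genes with a mean of at least 20 counts, 467 (4.99%) showed the same in every mouse. Mup2 was nearly as fixed, at 50.2 ± 0.08% (SD, n = 48) against a counting SD of 0.17, so that its called ratio of 0.01 ± 0.001 in log2 carries no weight as a difference between strains.

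Mup16 and Mup18 were given almost wholly to the NOD copy. Their mean totals were 18047 and 47877 counts per mouse, and the highest PWK count in any mouse was 0.00107 for Mup16 and 3.17 for Mup18. At such depths a count of 0 allows a PWK share of up to 0.0166 and 0.00627% per mouse (3 counts, counting error only), and no ratio is given. Both genes share over 87% of their windows with other genes, as stated above.

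Mup3, whose windows are mostly its own, had a PWK share of 2.31 ± 0.73% (range 1.14 to 4.44%, n = 48), a log2 ratio of PWK over NOD of -5.46 ± 0.08 (adjusted p = 9.93e-42). The mean counts behind it were 16885 for the NOD and 394 for the PWK copy. In every group the mean share lay between 1.94 and 3.14%, so the NOD copy held most counts in all 8 groups. Mup11 stood at the opposite end, with 92.5 ± 3.1% PWK (range 85.4 to 98.5%) and a log2 ratio of 3.73 ± 0.09 (adjusted p = 9.4e-33), from means of 744 PWK and 55.0 NOD counts. However, 74.6% of its windows also occur in other genes, and its coding sequence is 99.82% identical to that of the far more abundant Mup18. Its share thus describes assigned counts, and the part of read division between copies was not tested.

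Mup7 was mostly NOD, with a log2 ratio of -5.86 ± 0.33 (adjusted p = 2.49e-19), but its PWK share ran from 0.272 to 23.1% between mice. Of the Mup7 windows 82.9% also occur in other genes, so the same limit holds for this share. The SD of 5.2 percentage points was far above the counting SD of 0.045. NODxPWK high younger mice averaged 9.11 ± 10% and NODxPWK normal younger mice 1.23 ± 1.1% (SD, n = 6). In the allelic fit 43.6% of all tested genes passed, and 6 of 10 members did. These are Mup3, together with Mup2, Mup7, Mup11, Mup16 and Mup18, which carry the limits given above. Mup1, Mup17, Mup20 and Mup21, held at equal counts, could not pass, so the members give no rate to set beside that of all genes. The labels do not say whether both strains have every copy, so a share near 0 or 100% describes the assigned counts.

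**Figure D5:**
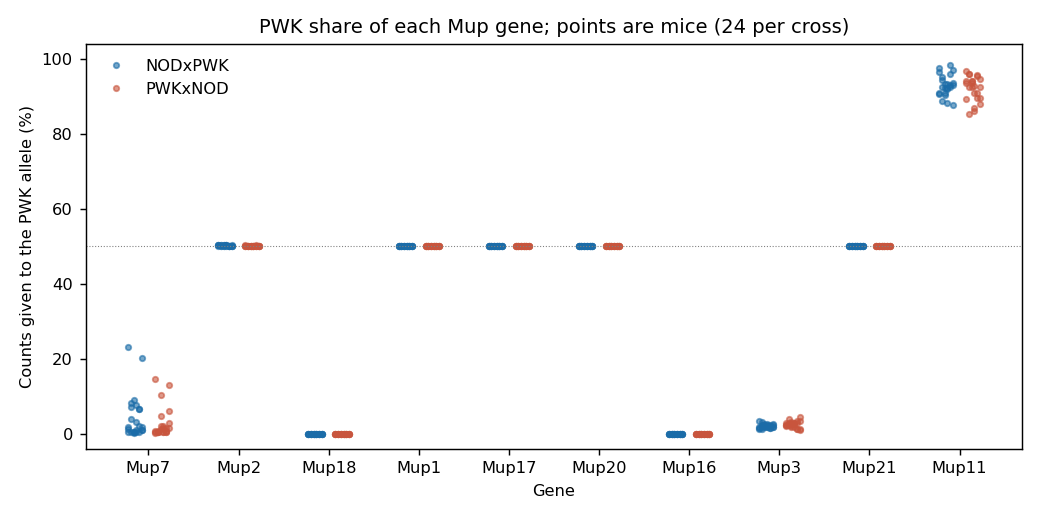
Share of counts given to the PWK allele (y axis, percent) for each member (x axis), with 1 point per mouse and 24 mice per cross. Mup1, Mup2, Mup17, Mup20 and Mup21 form a line at 50%, Mup11 lies near 92.5%, and Mup7 scatters from 0.272 to 23.1%.

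Over the summed family the PWK share was 25.7 ± 2.0% (range 22.3 to 31.2%, n = 48). Mup1, Mup2, Mup17, Mup20 and Mup21, fixed at or near 50%, are part of this sum, so the share also moves with their part of it and is no measure of a difference between the strains. Over the 5 other members (Mup3, Mup7, Mup11, Mup16 and Mup18) the mean share was between 2.37 and 3.40% in either age, diet or cross. The maternal over paternal ratio of the sum, which carries the same limit, was 0.03 ± 0.02 (adjusted p = 1), with an interval of -0.01 to 0.07. For age and diet the ratio differed by 0.09 ± 0.04 (adjusted p = 0.694) and 0.10 ± 0.04 (adjusted p = 1). By edgeR 0 members were called for parent of origin, age or diet, where 0.267, 0.705 and 0.0214% of all genes were. Mup1, Mup17, Mup20 and Mup21, held at equal counts, could not be called. Mup2 was fixed near 50%, and Mup16 and Mup18 had almost no PWK counts. The members thus give no rate to set beside that of all genes. Of Mup2, Mup3, Mup7 and Mup11, 0 reached an unadjusted p of 0.05 or less for parent of origin or age, and 1 did for diet (Mup11, 0.52 ± 0.17, unadjusted p = 0.00498, adjusted p = 1).

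Tested per mouse by permutation within the other factors and adjusted over 3 factors, the family PWK share was 26.4 ± 2.1% on the high and 25.0 ± 1.7% on the normal diet (SD, n = 24). That difference was 1.34 percentage points (permutation p = 0.0133, adjusted p = 0.0399), a value that moves with the family's makeup as well and so is no measure of an allele change. It did not pass without lane set 2, 3, 5 or 6 (adjusted p = 0.128, 0.0689, 0.0688 and 0.0505). Age gave 1.16 points (26.3 ± 1.7% in older and 25.1 ± 2.2% in younger mice, adjusted p = 0.0555, and 0.0288 and 0.0311 without lane set 1 and 6) and the cross 0.67 points (26.04 ± 1.8% in PWKxNOD and 25.36 ± 2.2% in NODxPWK mice, adjusted p = 0.217). Over the 5 members not fixed near 50% the diet difference was 1.03 points (3.40 ± 4.14 and 2.37 ± 2.63%, permutation p = 0.322). Without Mup2, which is fixed near 50%, the diet difference was 0.563 points (adjusted p = 0.529), so the call rests on which members are summed.

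Within groups the members varied together. On deviations of log2(CPM + 0.5) from the group means over 48 mice, 9 of the 10 members followed the sum of the other 9. Pearson's r was highest for Mup16 (r = 0.958, Spearman's rho = 0.947) and Mup7 (r = 0.944, rho = 0.926), followed by Mup17 (r = 0.904, rho = 0.892). Permutation within groups gave 1e-05 for r and rho of each of these 9, the smallest value that 100000 resamples allow (adjusted p = 1.78e-05 over 16 correlations). Mup3 (r = 0.795, rho = 0.766) and Mup21 (r = 0.736, rho = 0.751), which by the reference sequence barely share reads with the other members outside this pair, followed the others too.

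Mup1 was the exception, with r = 0.252 (permutation p = 0.112, adjusted p = 0.137) and rho = 0.216 (p = 0.171), and r = 0.165 without the 2 mice farthest from the median. For the other 9 members r stayed between 0.692 and 0.945 without those 2 mice. Of the windows of Mup1, 41.9% also occur in Mup12, the gene with which it shares most.

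A mean score of 19 male-biased liver genes other than Mup genes followed the family sum in the same way (r = 0.663, permutation p = 7e-05, adjusted p = 0.000112; rho = 0.687, p = 1e-05; r = 0.692 without the 2 farthest mice). The score of 11 female-biased genes gave r = -0.332 (p = 0.0536, adjusted p = 0.0779; rho = -0.360, p = 0.0217; r = -0.392). The clock score gave r = 0.264 (p = 0.0652, adjusted p = 0.0869; rho = 0.217, p = 0.162; r = 0.251). As stated above, the genes of that score were chosen with earlier results of these data known, which limits this test. Pancreas markers (r = 0.065, adjusted p = 0.74; rho = 0.129, p = 0.384), total counts (r = -0.121, adjusted p = 0.549; rho = -0.011, p = 0.946) and erythroid transcripts (r = 0.017, adjusted p = 0.917; rho = -0.045, p = 0.772) did not pass these permutation tests. Their r without the 2 farthest mice was 0.145, -0.076 and -0.054.

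The 6 genes most like the family by Pearson's r on the same deviations, among 10364 named genes with a mean of at least 2 CPM, were C9 (r = 0.823), Cyp7b1 (0.777), Aadat (0.775), Ugt2b1 (0.774), Capn8 (0.770) and AI182371 (0.769). C9 encodes a pore-forming complement component, Cyp7b1 an oxysterol hydroxylase, Aadat an aminotransferase of lysine and tryptophan breakdown, Ugt2b1 a glucuronosyltransferase and Capn8 a calpain protease. They averaged between 16.3 (Capn8) and 788 CPM (C9). All values rest on the same 48 libraries and are a description.

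Genes of the growth hormone axis and of Mup regulation were called in both directions. Of 24 tested, 3 were called higher and 3 lower in PWKxNOD mice (median log2 difference 0.023, against -0.002 over all genes), where 10.7% of all genes were called. Igfals, which encodes a carrier subunit of circulating IGF, was higher by 0.355 ± 0.08 (adjusted p = 0.000916). Stat5b, the growth hormone effector gene, differed by -0.33 ± 0.06 (adjusted p = 0.000183) and Foxa2, a hepatocyte transcription factor gene, by -0.37 ± 0.11 (adjusted p = 0.0278). The last 2 changed sign with the clock score as a covariate, at 0.08 (adjusted p = 1) and 0.10 (adjusted p = 1). By diet in older mice 0 of 24 were called by edgeR (median -0.017), with 5 at an unadjusted p of at most 0.05 and 0 called by DESeq2.

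Of 19 male-biased liver genes, 4 were called higher and 1 lower in PWKxNOD mice and 14 were not called, where 5.36% of all genes were called higher and 5.34% lower. Their median log2 difference was 0.020, against -0.002 over all genes. Ugt2b38, a glucuronosyltransferase gene, differed by 1.18 ± 0.30 (adjusted p = 0.00547), Selenbp2, which encodes a selenium-binding protein, by 0.60 ± 0.16 (adjusted p = 0.00795) and Cyp7b1 by 0.32 ± 0.09 (adjusted p = 0.0109). Elovl3, a fatty acid elongase gene, differed by -1.10 ± 0.15 (adjusted p = 8.41e-07), and by 0.03 with the clock score as a covariate.

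On the high diet in older mice 5 of the 19 male-biased genes were called higher and 1 lower (median 0.174, against -0.007 over all genes), where 1.90% of all genes were called higher and 1.81% lower. Among those higher were Hsd3b5, a male-type steroid reductase gene of the hydroxysteroid dehydrogenase family (0.45 ± 0.09, adjusted p = 0.0016), Serpina12, which encodes the serpin vaspin (0.99 ± 0.21, adjusted p = 0.00453), Cyp7b1 (0.55 ± 0.13, adjusted p = 0.00735) and Selenbp2 (0.84 ± 0.22, adjusted p = 0.0234). By diet in older mice 0 of 11 female-biased genes tested were called by edgeR (median -0.343), with 4 at an unadjusted p of at most 0.05 and 0 called by DESeq2. In PWKxNOD mice 3 of the 11 were called higher and 1 lower, where 5.36% of all genes were called higher and 5.34% lower. Their median log2 difference between the crosses was 0.499, against -0.002 over all genes. Cyp2b9, a cytochrome P450 gene, differed by -2.12 ± 0.33 (adjusted p = 6.79e-06), and Sult2a1, a sulfotransferase gene, was higher by 2.78 ± 0.52 (adjusted p = 0.000169).

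Of 14 genes of secreted hepatocyte proteins, 1 was called higher and 5 lower in PWKxNOD mice and 8 were not called (median log2 difference -0.063, against -0.002 over all genes), where 5.36% of all genes were called higher and 5.34% lower. Among those lower were the fibrinogen chain genes Fga (-0.30 ± 0.05, adjusted p = 1.58e-05), Fgg (-0.30 ± 0.05, adjusted p = 3.1e-05) and Fgb (-0.25 ± 0.05, adjusted p = 0.000149) and the albumin gene Alb (-0.29 ± 0.05, adjusted p = 0.000122). By diet in older mice 1 was called higher (Serpina3k, 0.27 ± 0.06, adjusted p = 0.0101) and 1 lower (Apoa2, -0.25 ± 0.06, adjusted p = 0.00545), against 1.90 and 1.81% of all genes. Of 9 other lipocalin genes tested, 1 was called between the crosses (Apom, -0.15 ± 0.05, adjusted p = 0.0325), near the 10.7% of all genes. By diet in older mice 1 of the 9 was called (Orm2, 0.76 ± 0.20, adjusted p = 0.0243), against 3.71% of all genes.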

How the data were processed

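Liver poly-A RNA of 48 mice was read unstranded, per the labels' protocols. Per the submitters' processing notes, the tools included CASAVA 1.7.0 and Bowtie 1.1.2, and the build was GRCm38 (mm10). The authors deposited expected counts per gene and allele, estimated by EMASE per the file names, which divide reads shared by alleles or gene copies. No source used here gives the EMASE version or settings. NOD and PWK counts were added and rounded, and 0.159% of counts had no gene symbol and stayed out. The members and gene lists were chosen with earlier results of these data known.

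Total counts of 11979 genes (filterByExpr) were fitted with edgeR 4.0.16 in R 4.3.3, as 8 group means over 48 mice with TMM factors, quasi-likelihood tests and Benjamini-Hochberg adjustment at 0.05 over all genes, the family sum being 1 added row. The biological coefficient of variation was 16.6%. Alleles were fitted with mouse as a factor over 9362 autosomal genes with a mean of at least 20 counts. Single values per mouse were tested by two-sided permutation within the other factors (100000 resamples), on log2(CPM + 0.5) with CPM on TMM libraries. Counts per mouse were 2025857 to 7480778, and intervals from counts cover counting error only. Alternatives included DESeq2 1.42.0, limma 3.58.1, other scalings and filters, left-out mice, the clock score and the replicate block. The scripts were tested on simulated data.

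Besides all members, the text names other Mup genes with a mean of at least 2 CPM, up to 4 genes of each list by smallest p, and the 6 genes most like the family. The result of 1 listed gene is not reported here. Replicate numbers are lane sets, each holding 1 mouse of every group. Over 168 pairs of mice from the same lane set the mean correlation of deviations from group means was -0.005, and 32 pairs were above 0.1. Other pairs gave 0.001, a value that centring within groups ties to the former, so it is no separate comparison. An absence of lane effects was thus not shown. Of 120 pairs within groups, the closest differed by a mean chi-square of 4.6 per gene, so no library was counted as deposited in duplicate.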

Additional observations from a re-analysis of the deposited data

Results flagged for a closer look

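In 128 sets of 6 mice (family sum, family PWK share, 10 member levels and 4 member PWK shares in 8 groups), 7 held a mouse whose gap to the nearest other mouse, over the group's range, was above Dixon's critical value (0.642 to 0.765 in these 7), and chance alone flags about 1 in 20 groups. NODxPWK normal younger mouse 5 had the highest Mup2 (19296 CPM, the others 10044 to 13360) and Mup16 (3848 CPM, the others 2189 to 2782). PWKxNOD high younger mouse 2 had the lowest Mup7 (21513 CPM, the others 32591 to 38717) and Mup16 (2701 CPM, the others 4084 to 4508). In the same group mouse 3 had the highest Mup11, at 350.7 CPM against 129.5 to 190.6. NODxPWK high older mouse 3 had the highest Mup18, at 14631 CPM against 6569 to 9290. PWKxNOD high older mouse 3 had the highest PWK share of Mup7, at 4.65% against 0.462 to 1.64%.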

How the results depend on the processing

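Of 414 alternatives to the main values, 350 were counted as the same. For tests this meant the same direction and side of the threshold. For numbers of members called it meant an equal or similar number, so the 350 can include numbers that changed somewhat. The replicate block gave the family 0.52 by cross (adjusted p = 5.71e-05), 0.58 by diet in older mice (adjusted p = 0.00557) and 0.64 by age and diet (adjusted p = 0.0768), where Mup20 and Mup18 were then called (adjusted p = 0.0489 and 0.0479). It changed no other call of the family or the members. Leaving out 1 lane set at a time gave the family -0.147 to -0.063 by age, 0.178 to 0.336 by diet, 0.474 to 0.601 by cross, 0.488 to 0.71 by diet in older mice, -0.306 to 0.097 by age and cross and -0.179 to 0.020 by diet and cross. Members called were then 0 to 2 by age, 0 to 3 by diet, 4 to 7 by diet in older mice and 0 to 1 by age and diet, and 7 by cross each time. The cause of these changes was not tested.

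Members called by age were 2 with DESeq2, and 0 with the clock score, without the mice labelled 25, the shallowest barcode or the mice with pancreas transcripts. By diet, 2 were called with DESeq2, and 0 in those 4 settings or with no low-count filter. By age and diet, 2 were called with DESeq2 and 1 with a mean of at least 20 counts. With the clock score the family gave 0.01 by age (adjusted p = 0.99), 0.29 by cross with 0 members (adjusted p = 0.917), and 0.44 by diet in older mice with 1 member (adjusted p = 0.179). The latter was 0.54 with 0 members without the mice labelled 25 (adjusted p = 0.409) and 0.47 with 0 members without the mice with pancreas transcripts (adjusted p = 0.237). A permutation test of the family by diet gave 0.266 (p = 0.0175), and those of the interactions were not run.

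The family PWK share, in percentage points, was least stable. Without 1 lane set it ranged from 0.835 to 1.475 by age, 1.185 to 1.532 by diet and 0.528 to 0.788 by cross. The diet difference did not pass without lane set 2, 3, 5 or 6 (adjusted p = 0.128, 0.0689, 0.0688 and 0.0505), and that of age passed without lane set 1 or 6 (adjusted p = 0.0288 and 0.0311). Without the mice labelled 25 it was 1.725 by age (adjusted p = 0.0332) and 0.780 by diet (adjusted p = 0.305). By diet it was 0.563 without Mup2, 1.159 without Mup3 and 1.027 without Mup17 (adjusted p = 0.529, 0.0767 and 0.154). By age it was 1.262 without Mup16, 1.456 without Mup18, 1.346 without Mup20 and 1.192 without Mup21 (adjusted p = 0.0469, 0.0151, 0.0341 and 0.0491). By cross it was -0.201 without Mup2 and 0.900 without Mup7 (adjusted p = 0.737 and 0.00213). The mean of the members' shares gave -0.115, 0.387 and -0.214 by age, diet and cross, and the 5 members not split about equally gave -0.218, 1.029 and -1.023.

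Small differences changed sign. Over left-out lane sets, Mup1 ran from -0.007 to 0.348, Mup3 from -0.004 to 0.104 and Mup21 from -0.024 to 0.123 by cross, and Mup3 from -0.003 to 0.085 by diet in older mice. By cross, Mup3 was -0.024 without the mice labelled 25 and -0.101 with the clock score, and Mup21 was -0.282 with the clock score and -0.003 without the shallowest barcode. With the clock score Stat5b gave 0.082, Foxa2 0.103, Elovl3 0.033 and Per3, itself in the score, -0.087. By diet in older mice Mup3 was -0.037 with the clock score and -0.031 without the mice with pancreas transcripts. Against the other 9 members, Mup16 ran from -0.001 to 0.043 and Mup20 from -0.072 to 0.079 over left-out lane sets, and were -0.050 and -0.032 without the mice labelled 25. The correlation with erythroid transcripts was -0.054 without the 2 farthest mice. Omitting the shallowest barcode and the mice with pancreas transcripts were choices made after seeing the data.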

Other observations

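Beyond the 10 members, 13 of the other 38 genes with a Mup symbol averaged 2 CPM or more, and the members held 74.2% of the counts of all Mup genes. Mup9 (15809 ± 7408 CPM, SD, n = 48), Mup10 (9148 ± 2251 CPM) and Mup13 (3902 ± 1313 CPM) were as abundant as several members. Mup9 was higher in PWKxNOD mice by 0.80 ± 0.16 in log2 (edgeR adjusted p = 0.000235) and on the high diet in older mice by 0.82 ± 0.22 (adjusted p = 0.0245). Mup10 passed for the diet in older mice (0.44 ± 0.12, adjusted p = 0.0316) and not for the cross (0.23 ± 0.09, adjusted p = 0.0876), and Mup13 passed for neither (0.13 ± 0.14 and 0.12 ± 0.20, adjusted p = 0.687 and 0.837).

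Among the less abundant ones, Mup6 (128 CPM on average) passed for both comparisons (0.78 ± 0.17 and 0.87 ± 0.25, adjusted p = 0.00144 and 0.0323). Mup5 (0.80 ± 0.17, adjusted p = 0.00102), Mup19 (2.73 ± 0.87, adjusted p = 0.0332) and the pseudogene Mup-ps17 (1.68 ± 0.38, adjusted p = 0.00189) were called higher in PWKxNOD mice and not by diet in older mice, and the difference between these comparisons was not tested. Mup8, Mup12, Mup14, Mup15, Mup-ps18 and Mup-ps19 passed for neither. PWK shares over summed counts were 50% for Mup9, Mup12, Mup13, Mup15, Mup19, Mup-ps17 and Mup-ps19 and 49.6% for Mup14, against 1.01% for Mup10, 15.9% for Mup8, 96.5% for Mup5, 97.75% for Mup6 and 84.8% for Mup-ps18.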
